A study of Mus musculus with 8 samples.

Results

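The genes of the methionine cycle and of the small-molecule methyltransferases that draw on it were followed in p53-null mouse liver and liver carcinoma. The set holds 10 genes, named Bhmt, Gnmt, Mat1a, Inmt, Nnmt, Pemt, Ahcy, Cbs, Cth and Gamt, of 12394 genes that both kinds of array measured. A member had to be the single gene symbol of a probe set present in both data sets, and 11 probe sets met this. The set was chosen on earlier values of these arrays, among them the gap in Bhmt between the infected livers. The liver values below are therefore a description and carry no test. The tumour p-values are those of the fit over all genes.

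Gene expression was measured on Affymetrix arrays in mice that all lacked p53, on a C57BL/6J background, in a study of telomere dysfunction. The liver data held 1 array of a TRF2DBDM pool and 1 array of a GFP pool. TRF2DBDM is a truncated TRF2, a protein that binds telomeres. It and GFP were each delivered intravenously by adenovirus, and liver was taken 48 hours later from 3 mice per pool. The tumours were hepatocellular carcinomas, 1 per array, of mice that carried an HBs transgene and were 12 to 15 months old. They came from 3 mTERC- mice without the telomerase RNA and 3 mTERC+ mice that carry it. The labels do not state the promoter of the HBs transgene, the sex of the mice or the age of the infected mice.

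The methionine cycle turns methionine into S-adenosylmethionine, the methyl donor of the cell, and the liver carries most of this traffic in the body. Methyltransferases pass the methyl group on and leave S-adenosylhomocysteine, which is split into adenosine and homocysteine. Homocysteine is either remethylated to methionine or sent through transsulfuration to cysteine.

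Values are MAS5 signals, in which Affymetrix software combines the probes of a probe set into a single brightness on a linear scale. The arrays were scaled by the authors to a trimmed mean signal of 150 each, and the median signal was 54.5 to 75.1 on the tumour arrays and 46.1 to 52.5 on the liver arrays. In mTERC- tumour 2 the 3'/5' signal ratio of the Gapdh control was 13.8, against 0.983 to 1.18 on the other 5 tumour arrays. The same ratio of the Actb control was 2.28 there, against 1.30 to 1.64 on those 5. Each member's difference is therefore given with and without mTERC- tumour 2. The 5' probe set of the 18S RNA control read 318.5 in mTERC- tumour 2 and 349 in mTERC- tumour 3. It read 11010 to 27810 in mTERC- tumour 1 and the mTERC+ tumours. Whether this gap bears on the members was not tested. The labels call every sample hepatocytes, and Alb, the gene of albumin, had signals of 38450 to 53965 in the tumours and of 11361 in the TRF2DBDM pool and 8672 in the GFP pool. Markers of other cells were also present, so the samples were mixed tissue. Within a mixed tissue, fewer cells of a type and less RNA per cell cannot be told apart. Terf2, the mouse gene of TRF2, had a signal of 145.7 in the TRF2DBDM pool and 105.1 in the GFP pool, and whether its probe set reads the delivered construct is not known. Terc and Trp53 were not analysed here.

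In the infected livers all 10 members had a higher signal in the TRF2DBDM pool than in the GFP pool, and 9 were at least 2-fold higher. Of the 7789 genes compared, 52.0% were higher in the TRF2DBDM pool. A ratio of 2 or more was found for 4.65%, and 2.95% were lower by as much. Since this contrast took part in the choice of members, nothing is read from these shares. Ratios are of the signal plus 32. The median log2 ratio was 1.78 over the members and 0.02 over all genes compared.

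The promoter sequences shown here belong to Inmt and Bhmt, which had the widest gap between the pools, and to Ahcy, which had the narrowest gap among the 7 members with a promoter entry (build GRCm38.p6). Each is the 250 bases before the annotated start on the minus strand, written 5' to 3'. Inmt lies at chr6:55174991-55175240, Bhmt at chr13:93637759-93638008 and Ahcy at chr2:155074498-155074747. Capitals mark matches on either strand to TATAAA (known as the TATA box), to CCAAT (its own name), to GGGCGG (known as the GC box), to AGGTCA (a nuclear receptor half-site), to TGTTCT (a glucocorticoid receptor half-site) or to CACGTG (an E-box), and none of the matches overlaps another.
Inmt: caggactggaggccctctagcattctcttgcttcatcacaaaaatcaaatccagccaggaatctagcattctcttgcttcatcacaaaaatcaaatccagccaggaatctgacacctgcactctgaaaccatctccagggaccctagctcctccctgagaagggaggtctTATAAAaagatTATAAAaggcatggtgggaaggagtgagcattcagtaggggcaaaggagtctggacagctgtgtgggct
Bhmt: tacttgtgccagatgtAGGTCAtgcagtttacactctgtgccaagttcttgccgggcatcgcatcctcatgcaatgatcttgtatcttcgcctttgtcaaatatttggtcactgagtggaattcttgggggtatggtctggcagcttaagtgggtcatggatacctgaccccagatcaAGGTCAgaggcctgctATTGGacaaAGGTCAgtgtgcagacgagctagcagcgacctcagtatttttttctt
Ahcy: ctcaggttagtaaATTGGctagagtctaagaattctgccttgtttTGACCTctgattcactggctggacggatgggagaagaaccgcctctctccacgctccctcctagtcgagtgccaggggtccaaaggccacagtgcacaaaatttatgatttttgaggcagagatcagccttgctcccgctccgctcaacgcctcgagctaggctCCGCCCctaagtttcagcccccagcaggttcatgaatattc
The Inmt sequence held 2 TATAAA matches, starting 80 and 69 bases before the annotated start, and no CG dinucleotide (0). The Bhmt sequence held AGGTCA 3 times, starting at 234, 72 and 47 bases before the start, and a CCAAT match at 56. The Ahcy sequence held 1 match to the GC box, 1 to the nuclear receptor half-site and 1 to the CCAAT box. Among 32536 promoters of the same length, TATAAA was found in 12.3%, AGGTCA in 14.0%, GGGCGG in 33.0% and CCAAT in 33.8%. TGTTCT was found in 16.0% and CACGTG in 6.04% of them, and neither in these 3 sequences. A match is a run of letters, not a site shown to be bound. A promoter entry was also matched for Gnmt, Pemt, Cbs and Gamt, but not for Mat1a, Nnmt and Cth.

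Bhmt and Mat1a restore methionine and turn it into its adenosyl form. Bhmt (Entrez Gene 12116, chr13:93616891-93637758 in GRCm38.p6) encodes the enzyme that remethylates homocysteine with betaine. Its signal was 6346 in the TRF2DBDM pool and 661 in the GFP pool, a 9.21-fold ratio that ranked 10 among the genes compared. Mat1a, the gene of the liver methionine adenosyltransferase, had a signal of 3123 in the TRF2DBDM pool and 862 in the GFP pool, a 3.53-fold ratio.

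The methyltransferases ranged from the highest ratio on the arrays to the smallest of the set. Inmt, which methylates indolethylamines such as tryptamine, had a signal of 2016 in the TRF2DBDM pool and 89.8 in the GFP pool. This 16.8-fold ratio ranked 1 among the 7789 genes. Gnmt, which methylates glycine and is abundant in liver, had 7153 in the TRF2DBDM pool and 2036 in the GFP pool, a 3.47-fold ratio. Gamt, which completes the synthesis of creatine, had 567 in the TRF2DBDM pool and 145 in the GFP pool, a 3.38-fold ratio. Pemt, which makes phosphatidylcholine from phosphatidylethanolamine, had 1347 in the TRF2DBDM pool and 469 in the GFP pool, a 2.75-fold ratio. Nnmt, which methylates nicotinamide, had 1886 in the TRF2DBDM pool and 1353 in the GFP pool. Its ratio of 1.38 was the smallest of the 10 and the only one under 2, and 81.2% of the genes compared had a lower ratio.

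The steps that clear the products were higher too. Ahcy, which splits S-adenosylhomocysteine, had a signal of 5021 in the TRF2DBDM pool and 2305 in the GFP pool, a 2.16-fold ratio. Cth, which releases cysteine from cystathionine, had 949 in the TRF2DBDM pool and 146 in the GFP pool, a 5.53-fold ratio. Cbs, which condenses homocysteine with serine, had 1141 in the TRF2DBDM pool and 392 in the GFP pool, a 2.77-fold ratio. Its other probe set read 792 in the TRF2DBDM pool and 234 in the GFP pool, in the same direction.

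**Figure D1:**
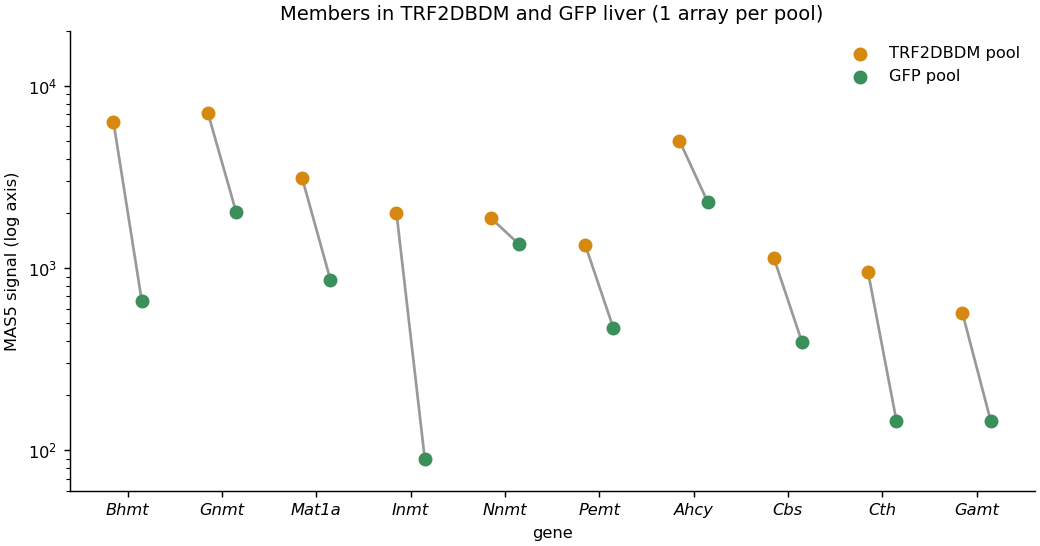
MAS5 signal (log axis) of the 10 members on the 2 liver arrays, with the TRF2DBDM pool left of the GFP pool and a line joining the pair. Every line slopes down to the GFP pool, most for Inmt (2016 in TRF2DBDM, 89.8 in GFP) and least for Nnmt, with no replicate behind either point.

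**Figure D2:**
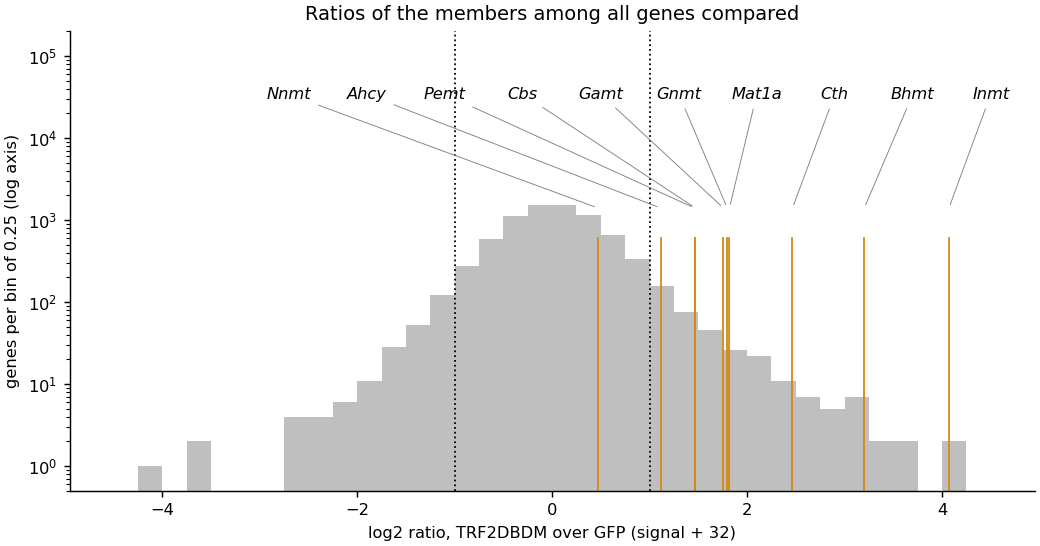
Number of genes (log axis) by log2 ratio of TRF2DBDM over GFP for the 7789 genes compared, with orange lines at the members and dotted lines at 2-fold. All members but Nnmt lie right of the upper dotted line, and Inmt lies furthest right of all genes compared.

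Marker lists of several cell types differed between the same pools, in both directions. Of 13 hepatocyte markers measured, 12 were higher in the TRF2DBDM pool, as were 52.0% of all genes compared, with summed signals of 86648 in the TRF2DBDM pool and 55175 in the GFP pool. All 5 periportal markers measured were higher, with sums of 5969 in the TRF2DBDM pool and 957 in the GFP pool. Of these sums Cyp2f2 alone held 3585 in the TRF2DBDM pool and 243 in the GFP pool. Of 8 pericentral markers 6 were higher, with sums of 9718 in the TRF2DBDM pool and 4081 in the GFP pool. Cyp2e1, also on the hepatocyte list, held 5901 and 2004 of these. Glul (1128 in TRF2DBDM, 1135 in GFP) and Lgr5 (93.1 in TRF2DBDM, 139.5 in GFP) were not higher. Of 12 macrophage markers 8 were higher, with sums of 2735 in the TRF2DBDM pool and 1797 in the GFP pool. Cholangiocyte and progenitor markers went the other way (0 of 6 higher), with sums of 349 in the TRF2DBDM pool and 909 in the GFP pool, as did neutrophil markers (3 of 9 higher), with sums of 1683 in the TRF2DBDM pool and 2393 in the GFP pool. None of the markers was listed at 0, but some lay far below the array medians of 46.1 to 52.5. Clec4f, a macrophage marker, had 5.5 in the TRF2DBDM pool and 6.4 in the GFP pool. The part of these cell types in the gaps of the members was not tested.

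Around the members, 101 other genes of one-carbon, sulfur and methyl metabolism were listed, and 73 of them could be compared in the livers. In the TRF2DBDM pool 6 of these were higher by 2-fold or more and 1 was lower by as much. Of all genes compared, 4.65% were higher and 2.95% lower by as much. The folate and methionine cycle list comprised 18 such genes with a median log2 ratio of 0.64, and 16 were higher, against 52.0% of all genes compared, 4 of the 16 at least 2-fold. Sardh and Dmgdh oxidise sarcosine and dimethylglycine, the products of Gnmt and Bhmt. Sardh had a signal of 1433 in the TRF2DBDM pool and 299 in the GFP pool, and Dmgdh had 354 in the TRF2DBDM pool and 146 in the GFP pool, a ratio of 2.16 that was 1.99 with an offset of 64. Bhmt2, a relative of Bhmt that uses S-methylmethionine, had 457 in the TRF2DBDM pool and 160 in the GFP pool. The fourth gene was Aldh1l1, a folate enzyme, at 2887 in the TRF2DBDM pool and 935 in the GFP pool. Shmt1, which loads one-carbon units onto folate from serine, had 502 in the TRF2DBDM pool and 333 in the GFP pool.

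The other lists lay closer to the median of all genes. Transsulfuration and cysteine use comprised 13 genes with a median log2 ratio of 0.28, with 0 at least 2-fold apart in either direction. Cdo1, which oxidises cysteine, had 2456 in the TRF2DBDM pool and 1755 in the GFP pool. Gclc, the catalytic subunit for glutathione synthesis, had 1936 in the TRF2DBDM pool and 1713 in the GFP pool. Among 8 other small-molecule methyltransferases the median was 0.05, and the 1 gene at least 2-fold higher was Pnmt, the adrenaline-forming enzyme, at 82.3 in the TRF2DBDM pool and 22.7 in the GFP pool. Its GFP signal was below that array's median of 46.1, so it was compared only through the TRF2DBDM pool, and its ratio of 2.09 was 1.69 with an offset of 64. Tpmt, which methylates thiopurine drugs, had 193 in the TRF2DBDM pool and 140 in the GFP pool.

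Polyamine and methionine salvage had the lowest median of the lists, at -0.41 over 12 genes. Of these 3 were higher, against 52.0% of all genes compared. Srm, the spermidine synthase, had 694 in the TRF2DBDM pool and 1140 in the GFP pool, and Odc1, the entry enzyme of polyamine synthesis, had 1184 in the TRF2DBDM pool and 1816 in the GFP pool. The creatine, choline and nicotinamide list had a median of 0.22 over 13 genes. Its 1 gene at least 2-fold higher was Aox3, an aldehyde oxidase, at 254 in the TRF2DBDM pool and 58.8 in the GFP pool. Nampt, which salvages nicotinamide, had 177 in the TRF2DBDM pool and 157 in the GFP pool. DNA and protein methyltransferases had a median of -0.11 over 9 genes. The 1 gene at least 2-fold lower was the histone methyltransferase Ehmt2, at 197 in the TRF2DBDM pool and 643 in the GFP pool, and Dnmt1, the maintenance DNA methyltransferase, had 350 in the TRF2DBDM pool and 381 in the GFP pool.

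In the carcinomas, 9 of the 10 members had a lower mean log2 level in mTERC- than in mTERC+ tumours, but none differed beyond the spread between tumours. Of the 11966 genes tested, 48.7% had a lower mean in mTERC- tumours. The members' median log2 difference was -0.54, and that of all genes tested was 0.02. No member (0 of 10) passed a Benjamini-Hochberg adjusted p of 0.05 in limma or an unadjusted p under 0.05, and their adjusted p values lay between 0.952 and 0.996. Over all genes 0.00836% passed, which is 1 gene, and 5.07% had an unadjusted p under 0.05. The groups overlapped for every member (0 of 10 apart), while 10.2% of all genes tested had groups that did not overlap.

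Mat1a had signals of 3946, 1716 and 2179 in mTERC- tumours 1, 2 and 3, and of 5534, 3052 and 3188 in mTERC+ tumours 1, 2 and 3. mTERC+ tumour 1 was highest, and mTERC- tumour 1 lay among the mTERC+ values. The means were 2614 ± 1177 in mTERC- and 3924 ± 1395 in mTERC+ tumours (SD, 3 tumours each), with a log2 difference of -0.62 (SE 0.38, limma adjusted p = 0.952). Leaving out mTERC- tumour 2 gave -0.36, while -0.34 was found when mTERC+ tumour 1 was dropped and -0.95 when mTERC- tumour 1 was.

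Bhmt had signals of 4201, 8376 and 7265 in mTERC- tumours 1, 2 and 3, and of 15872, 8687 and 3391 in mTERC+ tumours 1, 2 and 3. The mTERC+ group held both the highest and the lowest tumour, 4.65-fold apart on the offset scale. The log2 difference was -0.29 (SE 0.47, limma adjusted p = 0.972), and leaving out mTERC+ tumour 1 or mTERC- tumour 1 gave 0.22 or 0.01. It was -0.49 without mTERC- tumour 2 and -0.88 without mTERC+ tumour 3. The level of the Y-linked genes as a covariate gave 0.15. The mean log2 level of those Y-linked genes was 6.22 to 7.07 in mTERC- and 6.68 to 7.28 in mTERC+ tumours.

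Inmt had signals of 1067, 31.0 and 880 in mTERC- tumours 1, 2 and 3, and of 2651, 662 and 835 in mTERC+ tumours 1, 2 and 3. In mTERC- tumour 2 its signal was below the array median of 75.1, and the other mTERC- tumours lay among the mTERC+ values. The log2 difference was -1.56 (SE 0.83, limma adjusted p = 0.952), against -0.23 without mTERC- tumour 2, whose Gapdh control had the 3'/5' ratio of 13.8, and -0.96 without mTERC+ tumour 1.

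Gnmt had signals of 6157, 12352 and 5037 in mTERC- tumours 1, 2 and 3, and of 17646, 12164 and 8003 in mTERC+ tumours 1, 2 and 3. Only mTERC- tumour 2 reached the mTERC+ range. The log2 difference was -0.72 (SE 0.40, limma adjusted p = 0.952), -1.10 without mTERC- tumour 2 and -0.44 without mTERC+ tumour 1. The Y-linked covariate gave -0.23.

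Pemt had signals of 1770, 217 and 578 in mTERC- tumours 1, 2 and 3, and of 651, 1034 and 1546 in mTERC+ tumours 1, 2 and 3. The mTERC- group held both the highest and the lowest tumour. The log2 difference was -0.69 (SE 0.56, limma adjusted p = 0.956), but 0.001 without mTERC- tumour 2. It was -1.43 without mTERC- tumour 1. The Y-linked covariate changed it to -1.37.

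Nnmt was the member with a higher mean in mTERC- tumours. It had signals of 1559, 367 and 581 in mTERC- tumours 1, 2 and 3, and of 1491, 380 and 101 in mTERC+ tumours 1, 2 and 3. Tumour 1 was the highest of each group, and mTERC+ tumour 3 was the lowest of the 6. The log2 difference was 0.74 (SE 0.69, limma adjusted p = 0.965) and -0.12 without mTERC+ tumour 3. Dropping mTERC- tumour 2 instead gave 1.18, dropping mTERC+ tumour 1 gave 1.64 and dropping mTERC- tumour 1 gave 0.18. With the Y-linked covariate the difference was 0.99.

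Gamt had signals of 456, 1203 and 1078 in mTERC- tumours 1, 2 and 3, and of 547, 720 and 1547 in mTERC+ tumours 1, 2 and 3. Its groups overlapped widely, and the log2 difference was -0.01 (SE 0.45, limma adjusted p = 0.996), with a 95% interval of -0.97 to 0.94. Leaving out mTERC- tumour 1 gave 0.41, leaving out mTERC- tumour 2 gave -0.26, and quantile normalization gave 0.07.

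Ahcy had signals of 7341, 3599 and 3832 in mTERC- tumours 1, 2 and 3, and of 8055, 4151 and 6376 in mTERC+ tumours 1, 2 and 3. Its highest and lowest tumours were 2.23-fold apart on the offset scale, the smallest such gap of the 10 members. The log2 difference was -0.36 (SE 0.37, limma adjusted p = 0.965). Leaving out mTERC- tumour 2 gave -0.17, leaving out mTERC+ tumour 1 gave -0.14 and leaving out mTERC- tumour 1 gave -0.68.

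Of the transsulfuration genes, Cbs had signals of 1035, 1546 and 1016 in mTERC- tumours 1, 2 and 3, and of 3326, 1420 and 1130 in mTERC+ tumours 1, 2 and 3. mTERC+ tumour 1 stood above the rest, and the log2 difference of -0.56 (SE 0.40, limma adjusted p = 0.952) was -0.10 without it and -0.75 without mTERC- tumour 2. The Y-linked covariate gave -0.13. The second probe set of Cbs read 760, 350 and 891 in mTERC- tumours and 1927, 997 and 574 in mTERC+ tumours, and so placed mTERC- tumour 2 lowest where the first placed it second highest. Cth had signals of 1134, 704 and 1699 in mTERC- tumours 1, 2 and 3, and of 1902, 1497 and 1432 in mTERC+ tumours 1, 2 and 3. Its log2 difference was -0.51 (SE 0.37, limma adjusted p = 0.952), and -0.20 without mTERC- tumour 2.

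**Figure D3:**
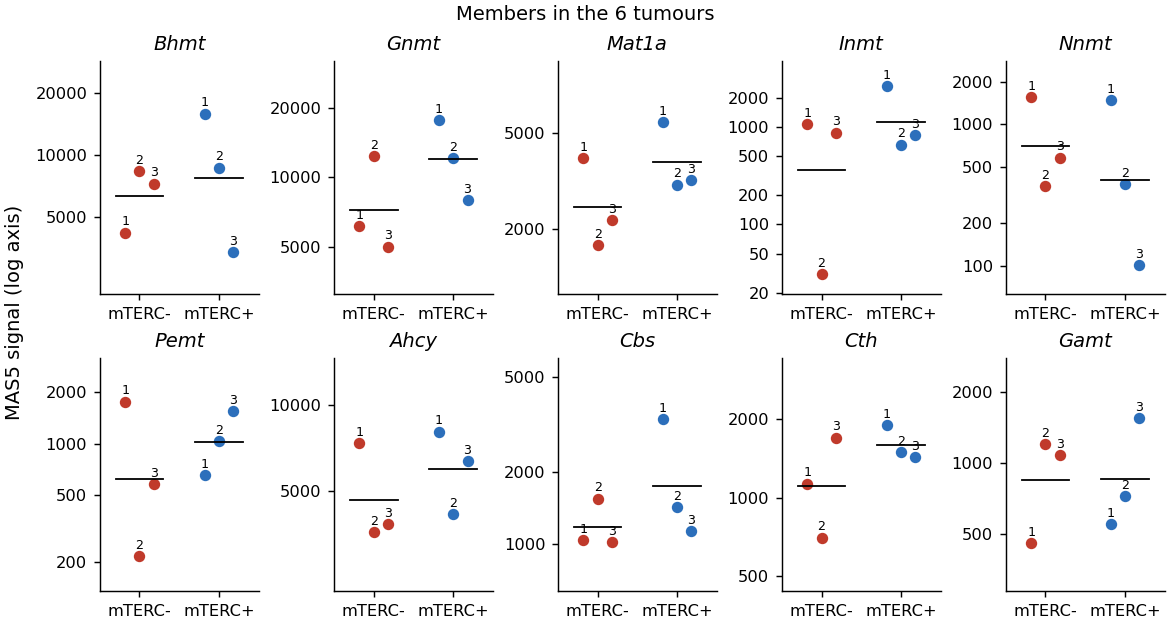
MAS5 signal (log axis) of the 10 members in the 6 tumours, with mTERC- tumours left of mTERC+ tumours, the tumour number above each point and a bar at the mean on the log2 scale with offset 32. The groups overlap in every panel, mTERC+ tumour 1 is the highest point in 7 panels, and mTERC- tumour 2 is the lowest in 5.

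**Figure D4:**
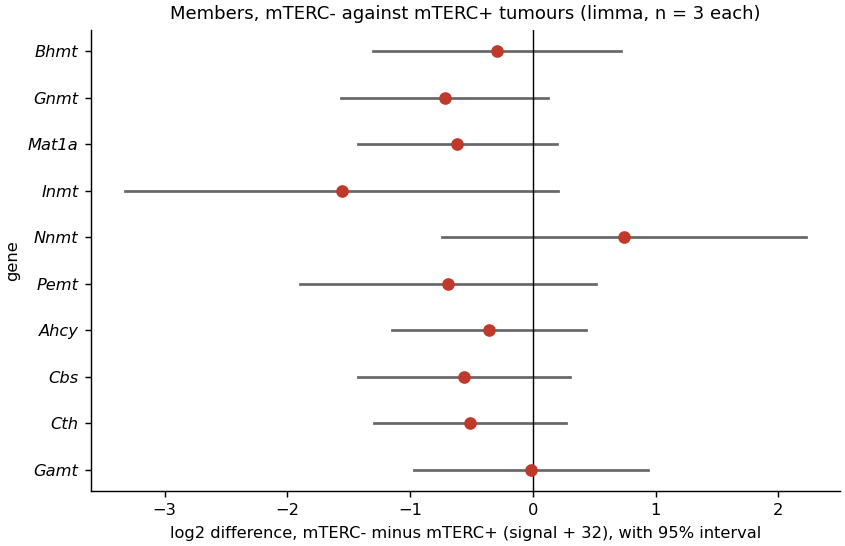
Log2 difference (mTERC- minus mTERC+) of each member with its 95% interval from limma, n = 3 tumours per group. All 10 intervals include 0, and Inmt has the widest, from -3.32 to 0.21.

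Single tumours stood apart across members. mTERC+ tumour 1 had the highest signal of the 6 for 7 members, and its median deviation from the members' means was 0.89 on the log2 scale. mTERC- tumour 2 had the lowest signal for 5 members, with a median deviation of -0.53. The deviations of the other 4 tumours lay between -0.19 and 0.08. How often each tumour was highest or lowest over all genes was not counted, so these counts are not read as a trait of the members. Over all probe sets, mTERC- tumour 2 also had the lowest mean correlation with the other tumour arrays, 0.788 against 0.835 to 0.847. Without mTERC- tumour 2 the members' median log2 difference was -0.25 with 8 of 10 lower in mTERC-, and without mTERC+ tumour 1 it was -0.33, also with 8 of 10. With the Y-linked covariate it was -0.28, again with 8 of 10.

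Marker lists varied over the same tumours. The summed signal of 13 hepatocyte markers was 181588 to 260914 in mTERC- tumours and 237548 to 286245 in mTERC+ tumours, and 9 of the 13 had a lower mean in mTERC-. Over all genes tested, the share with a lower mean was 48.7%. Macrophage markers (13 of 13 lower) summed to 11319 to 17154 in mTERC- and 10390 to 56787 in mTERC+ tumours. Pericentral markers (3 of 8 lower) summed to 2498 to 4659 in mTERC- and 1518 to 2313 in mTERC+ tumours, and cholangiocyte and progenitor markers (1 of 6 lower) to 1768 to 3036 in mTERC- and 1627 to 2906 in mTERC+ tumours. Of the pericentral sums Cyp2e1 held 1714, 1867 and 487 in mTERC- tumours 1, 2 and 3. It held 88.7, 514 and 342.5 in mTERC+ tumours 1, 2 and 3. Periportal markers (3 of 6 lower) summed to 5928 to 11718.5 in mTERC- and 9845 to 16792 in mTERC+ tumours. Endothelial markers (10 of 11 lower) summed to 1297 to 2352 in mTERC- and 1979 to 3539 in mTERC+ tumours. Neutrophil markers (0 of 9 lower) summed to 9335 to 22122 in mTERC- and 409 to 3119 in mTERC+ tumours. No marker was listed at 0, but some lay far below the array medians, such as Krt7 at 3.9 in mTERC+ tumour 3. The part of these cells in the members' levels was not tested.

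The members did not move as a single block across the tumours. Over the 45 pairs of members the median Pearson correlation of log2 levels over the 6 tumours was 0.25, and 29 pairs had a positive value. The highest were Mat1a with Ahcy at 0.91, Inmt with Cth at 0.90 and Gnmt with Cbs at 0.88. The Inmt and Cth value was 0.49 without mTERC- tumour 2. The lowest was Nnmt with Gamt, at -0.89. These values describe 6 arrays that share scaling and tissue mixture, and carry no test.

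Among 11401 other genes, the closest patterns over the 6 tumours were Tnik and Pbld2 for Bhmt (r = 0.97 each) and Tmco1 for Gnmt (r = 0.998), followed by Chmp7 (r = 0.97). For Mat1a they were Tm9sf2 and Sdc4 (r = 0.98 each), for Inmt Riok3 and Galnt1 (r = 0.99 each) and for Nnmt Atp5j and Rida (r = 0.99 each). For Pemt they were Pctp (r = 0.99) and Lasp1 (r = 0.98), for Ahcy Zfp352 and Cryz (r = 0.99 each) and for Cbs Cyb5r1 (r = 0.97) and Celf4 (r = 0.96). For Cth they were Ttc26 and Cmtr1 (r = 0.998 and 0.997), and for Gamt Tmem30b and Rangap1 (r = 0.99 each). With 6 points such values are common, since 35 to 324 genes had an r over 0.9 with a given member. The 324 were those of Inmt, whose signal of 31.0 in mTERC- tumour 2 lay far below the 662 to 2651 of the other tumours. The r values of these genes without that tumour are not given here.

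None of the related genes (0 of 80 tested) passed an adjusted p of 0.05 in the tumours, while 6 had an unadjusted p under 0.05 and 9 had groups that did not overlap. Both counts lie near the background of 5.07% and 10.2% of all genes tested. Of 19 folate and methionine cycle genes, 11 lay lower in mTERC- on average, and the list median log2 difference was -0.11. Chdh, which makes betaine for Bhmt from choline, was named after its values were seen. It had 1002, 896 and 1303 in mTERC- tumours and 1566, 1737 and 1822 in mTERC+ tumours, without overlap, and differed by -0.68 on the log2 scale (SE 0.32, limma adjusted p = 0.952). Bhmt2 averaged 602 ± 174 in mTERC- and 719 ± 233 in mTERC+ tumours, Sardh 2805 ± 168 in mTERC- and 3167 ± 1110 in mTERC+, and Dmgdh 375 ± 142 in mTERC- and 552 ± 73.6 in mTERC+ (SD, 3 tumours each). Shmt1 averaged 1045 ± 1061 in mTERC- and 766 ± 251 in mTERC+ tumours (SD, 3 tumours each). Mtr, the vitamin B12-dependent methionine synthase, did not reach the level needed for the test, with signals of 24.7 to 51.2 in mTERC- and 8.70 to 128 in mTERC+ tumours.

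In transsulfuration and cysteine use, 3 of 13 genes lay lower in mTERC- on average, and the list median was 0.08. Gclc had 4401, 3601 and 2437 in mTERC- tumours 1, 2 and 3, and 1603, 2238 and 1725 in mTERC+ tumours 1, 2 and 3. All mTERC- values lay above all mTERC+ values, but the log2 difference of 0.87 (SE 0.34) had a limma adjusted p of 0.952. Got1, a cytosolic aspartate aminotransferase named after its values were seen, lay apart the other way, at 1289, 214 and 902 in mTERC- and 1455, 1496 and 1772 in mTERC+ tumours, with a log2 difference of -1.25 (SE 0.50, limma adjusted p = 0.952). The 214 is that of mTERC- tumour 2, whose Gapdh control had the 3'/5' ratio of 13.8, and the difference without this tumour is not given here. Cdo1 averaged 7902 ± 2909 in mTERC- and 5921 ± 836 in mTERC+ tumours (SD, 3 tumours each). Of 12 polyamine and salvage genes 9 lay lower in mTERC- on average, and the list median was -0.13. Srm was higher in every mTERC- tumour than in any mTERC+ tumour, at 806, 943 and 576 in mTERC- and 497, 424 and 287 in mTERC+ tumours, with a log2 difference of 0.90 (SE 0.36, limma adjusted p = 0.952). Odc1 averaged 296 ± 124 in mTERC- and 313 ± 94.4 in mTERC+ tumours (SD, 3 tumours each).

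The other lists had medians near that of all genes or slightly below it. Of 10 other small-molecule methyltransferases 6 lay lower in mTERC- on average, and the list median was -0.22. Tpmt averaged 339 ± 86.6 in mTERC- and 414 ± 140 in mTERC+ tumours, and Hnmt, which methylates histamine, 100.03 ± 77.3 in mTERC- and 123 ± 31.4 in mTERC+ (SD, 3 tumours each). Of 16 creatine, choline and nicotinamide genes 9 lay lower in mTERC- on average, and the list median was -0.07. Gatm, which makes the substrate of Gamt, averaged 89.9 ± 74.5 in mTERC- and 143 ± 112 in mTERC+ tumours, and Nampt 325 ± 88.5 in mTERC- and 537 ± 311 in mTERC+ (SD, 3 tumours each). Of 10 DNA and protein methyltransferases 5 lay lower in mTERC- on average, and the list median was -0.01, and Dnmt1 averaged 190 ± 36.2 in mTERC- and 129 ± 48.1 in mTERC+ tumours (SD, 3 tumours each). Mat2a was not analysed here.

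To set all 8 arrays side by side, signals were rescaled to one trimmed mean over the 22690 probe sets that both array kinds share. The tables were normalized separately, so these levels are a description with no test. The liver contrast also took part in the choice of members, so nothing is read from the shares below. Of the members, 6 were lower in the GFP pool than in each of the 6 tumours. These were Bhmt, Gnmt, Mat1a, Cbs, Cth and Gamt. Of 6236 genes with the same probe set in both tables and kept in both comparisons, 18.4% did likewise. These genes were not matched to the members by signal level. Bhmt had a rescaled signal of 1684 to 7797 in the tumours, 6341 in the TRF2DBDM pool and 661 in the GFP pool. The TRF2DBDM pool lay within the tumour range for 4 members, against 54.9% of those genes, and above it for the other 6. Nnmt ran the other way from Bhmt, with 50.2 to 759 in the tumours, below 1885 in the TRF2DBDM pool and 1354 in the GFP pool.

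**Figure D5:**
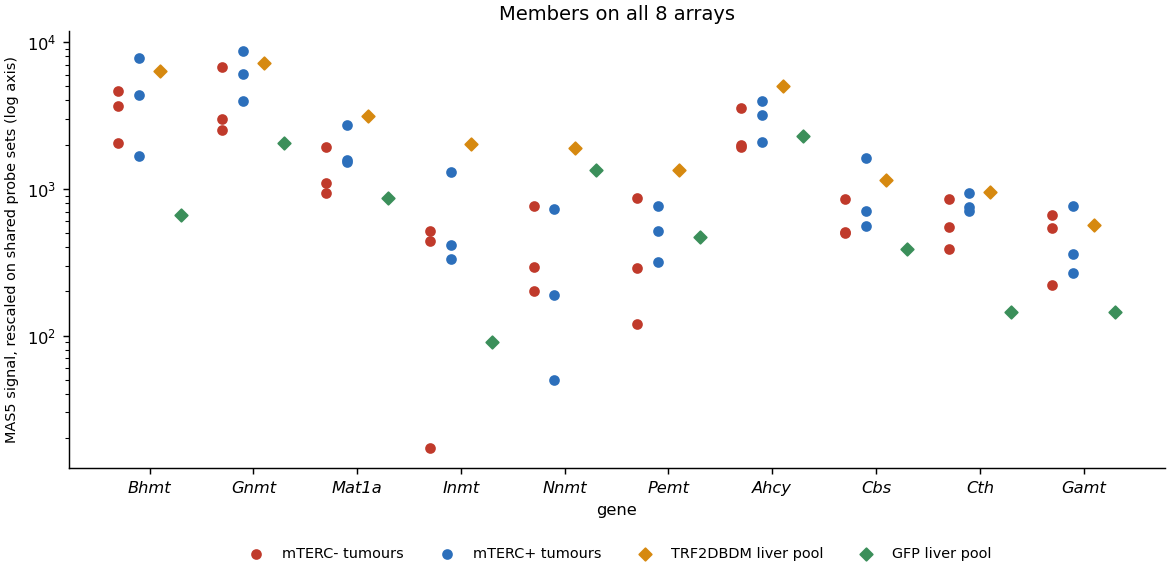
Rescaled MAS5 signal (log axis) of each member in mTERC- tumours, mTERC+ tumours, the TRF2DBDM pool and the GFP pool, left to right, with a point per array. For Bhmt the GFP pool sits at 661, under every tumour, and for Nnmt both livers sit above every tumour.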

How the data were processed

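The deposited values are linear MAS5 intensity signals of probe sets, per the submitters' processing notes, made from biotin-labelled cRNA of 6 microg total RNA, per the labels' protocols. The MAS5 version is not given in the sources used here. The authors' scaling was kept. The tumour table had 45101 probe sets, of which 34958 had 1 gene symbol, and the liver table had 22690, of which 20393 had 1.

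Each gene was read from its probe set with the highest mean signal, on the scale log2(signal + 32). Tumour genes at or above the median level of all probe sets were kept, 11966 of 18194, and limma 3.58.1 (R 4.3.3) was fitted to the 3 tumours of each group (empirical Bayes with a variance trend, two-sided, Benjamini-Hochberg over all genes). Liver genes were compared where the signal reached the array median on at least 1 array, 7789 of 12394, with no test. Precision is limited by the number of arrays.

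The members, lists, tests and alternatives were chosen with earlier results of these data known. All members were named, with a fixed set of related genes whatever their values. Genes of the related lists with no overlap in the tumours or at least 2-fold apart in the livers, where named besides these, were chosen after their values were seen. For patterns like a member, the 2 genes with the highest correlation over the tumours were named. The Y-linked covariate was the mean of Eif2s3y, Kdm5d and Uty. On simulated tumours with 11966 genes, limma called 35 of 100 genes changed by 2 on the log2 scale and 68 of 100 changed by 3, with 8 unchanged genes called. The noise was drawn separately for each gene and array, without effects shared across an array. No smaller change was simulated, so the share called at the size of the members' differences was not measured.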

Additional observations from a re-analysis of the deposited data

How the results depend on the processing

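The number of tumour genes past the threshold was 1, that gene being no member, and it was 0 with an offset of 1, median centring, the mean of probe sets, the Y-linked covariate and no variance trend. Leaving out each tumour in turn gave 0 to 6 genes. No member passed under any of the 14 alternatives. The members' median log2 difference lay between -0.66 and -0.25 when each tumour was left out in turn, and 7 to 9 members then had a lower mean in mTERC- tumours. With the Y-linked covariate the median was -0.28. Signs turned for Bhmt (0.15 with the Y-linked covariate, and -0.88 to 0.22 over the tumours left out, with 0.006 without mTERC- tumour 1), Nnmt (-0.12 to 1.64, negative without mTERC+ tumour 3) and Pemt (-1.43 to 0.0012, positive without mTERC- tumour 2). They also turned for Gamt (0.070 with quantile normalization, and -0.32 to 0.41, positive without mTERC- tumour 1 or mTERC+ tumour 3). The cause was not tested. In the livers 592 genes were at least 2-fold apart, 1134 with an offset of 1 and 372 with an offset of 64. The same 9 members stayed at least 2-fold higher under these and the other 4 alternatives. No paired analysis was possible because the labels give no replicate numbers shared between the groups.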
